A study of Chrysanthemum x morifolium with 6 samples.

Results

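TGA factors are plant transcription factors of the bZIP class, proteins that bind DNA as pairs through a basic region and a leucine zipper. The name comes from TGACG, the core of the promoter elements they bind. In Arabidopsis they fall into clades: clade I holds TGA1 and TGA4, clade II TGA2, TGA5 and TGA6, clade III TGA3 and TGA7, clade IV TGA9 and TGA10, and PERIANTHIA stands alone as clade V. Clade II factors bind NPR1, a co-regulator that senses salicylic acid, and act in systemic acquired resistance and in the detoxification response that depends on the GRAS protein SCL14. TGA1 and TGA4 act in the nitrate response of Arabidopsis roots and in defence, and PERIANTHIA sets floral organ number.

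The chrysanthemum data hold 29 TGA clusters among 10744 clusters of regulators. A cluster is an assembled sequence group that stands in for a gene, and several clusters can be copies, alleles or pieces of 1 gene. A cluster was counted as TGA when the authors' table placed it in the bZIP family and its best Swiss-Prot match was a flowering-plant TGA factor, TGACG-sequence-specific protein, HBP-1b or PERIANTHIA. The rule used the annotation alone and no expression value. Clusters are named below by that match, which does not establish orthology, and by the last part of their identifier (166470 is Cluster-71316.166470).

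The study set salt-treated roots beside water-treated roots of Chrysanthemum x morifolium, cultivar jinba. The salt group had 3 libraries from roots of seedlings watered with 100 mM salt water, and the salt itself is not named in the labels. The control group had 3 libraries from roots of seedlings watered with purified water. Both groups were 1-month-old seedlings of the same cultivar, grown for 30 days with a 16 h photoperiod and collected 24 h after treatment, and the labels call the libraries biological replicates.

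The libraries held 12.8 to 16.1 M fragments (M for mega) in salt and 15.9 to 20.1 M in control, as recovered from the deposited counts and FPKM. Over the regulator clusters, salt and control libraries lay apart on the main axis of a principal component analysis (75.6% of the variance), and salt 1 lay apart from the other salt libraries on the next axis (9.27%). Clusters matching the root factors SHORT-ROOT, SCARECROW, AIL/PLETHORA and WOX5 were detected in all 6 libraries, and some moved with the treatment. Summed FPKM of the 4 SHORT-ROOT clusters was 14.6, 14.8 and 13.2 in salt and 30.0, 29.0 and 31.3 in control, and that of the 13 AIL/PLETHORA clusters 28.0 to 37.0 in salt and 21.5 to 25.1 in control. The 17 SCARECROW clusters summed to 22.0 to 33.7 FPKM in salt and 31.9 to 38.2 in control, and WOX5 had 3.24 to 5.45 in salt and 4.79 to 6.57 in control. The part of these markers in the TGA differences was not tested. Counts in clusters without a flowering-plant Swiss-Prot match made up 16.2% ± 2.66 of the regulator counts in salt and 8.59% ± 0.069 in control (SD, n = 3 each). That share moved with the treatment, and its part in the differences below was not tested. Most changes are therefore given on 2 scales, one set by all clusters and one set by the clusters with a flowering-plant match, which raised the median over all tested clusters by 0.53 in log2 fold change. These are bulk roots, so fewer cells of a type and less RNA per cell cannot be told apart.

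The 29 clusters carried 10 Swiss-Prot names. There were 11 clusters of clade I: 6 matched TGA1, 2 TGA4 and 3 the tobacco factor TGA-1A. Clade II had 16: 8 matched tobacco TGA-2.1, 3 wheat HBP-1b(c38), 3 TGA6, 1 TGA2 and 1 TGA5. Clade III had 1 cluster (TGA7) and clade V 1 (PERIANTHIA), and no cluster matched TGA9 or TGA10. All 29 were assigned by the deposited annotation to the KEGG orthology group of TGA factors, a field the rule did not use. The DOG1 domain, a region that in TGA factors follows the bZIP, was annotated in 24 of 29 TGA clusters and in 0 of the 185 other flowering-plant bZIP clusters. A bZIP domain was annotated in 27, both domains in 22. The best matches in the NR protein database were flowering plants for all 29, most often grape (10) and sesame (6). Cluster lengths ran between 278 and 2033 bases with a median of 1290, and 6 clusters were under 500 bases.

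Most TGA clusters that could be tested were lower in salt. Of 29 clusters, 19 passed the filter on low counts; edgeR's quasi-likelihood test with Benjamini-Hochberg adjustment over all 5284 tested clusters called 15 lower and 0 higher. Across all tested clusters 29.3% were called lower and 23.9% higher. The 15 fell by 1.59-fold to 11.4-fold, 11 of them by at least 2-fold, a size at which 22.3% of all tested clusters were called lower, and their adjusted p-values lay between 0.000312 and 0.0295. At an unadjusted p under 0.05 edgeR also had 15 lower and 0 higher, beside 1765 lower and 1378 higher of all 5284. DESeq2 called 15 lower and 0 higher, and limma on FPKM 15 of 18 lower and 0 higher, where 25.9% and 36.2% of all clusters were called lower. With the scale set by flowering-plant clusters, 10 of 19 were called lower and 0 higher, all 10 among the first 15, beside 16.5% lower and 33.4% higher over all clusters.

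The filter bears on these counts, because a cluster could pass it through its control libraries alone. Of the 19 tested clusters, 14 passed the filter's level of 0.616 CPM (counts-per-million of the scaled depth) in all 6 libraries, and 13 of these 14 were called lower. The other 5 passed it in fewer than 3 salt libraries, 1 of them in none. In 16 of the 19 every salt library lay below every control library, which held for 39.6% of all tested clusters and 47.5% of flowering-plant-matched ones. Over all 29 it held for 17. No share over all clusters stands beside the 13 of 14 or the 17 of 29, so neither is read as a result about TGA clusters.

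**Figure D1:**
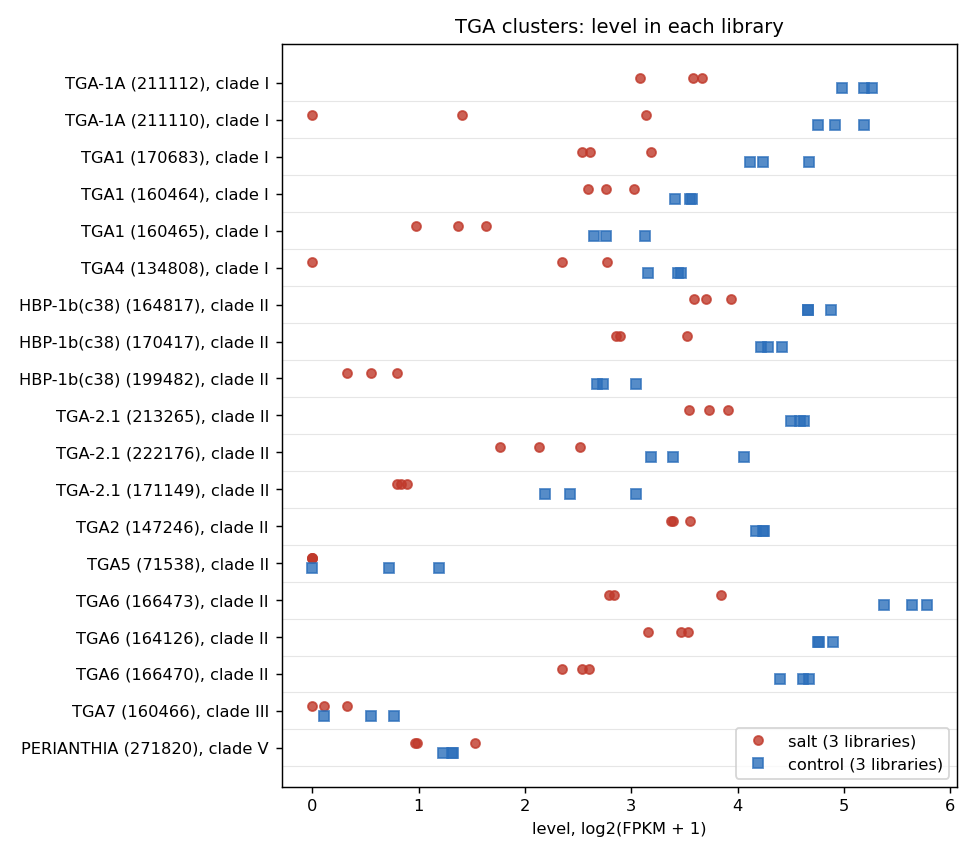
Level of the 19 named TGA clusters (all that were called, and the most abundant cluster of each Swiss-Prot name) as log2(FPKM + 1) in the 3 salt libraries (red circles, upper line of each row) and the 3 control libraries (blue squares, lower line). Salt circles lie left of all control squares in 16 of these rows; TGA5, TGA7 and PERIANTHIA overlap.

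In summed CPM the 29 clusters came to 72.4, 73.7 and 76.2 in the salt libraries and 165, 182 and 167 in the control libraries. The means were 74.1 ± 1.93 in salt and 172 ± 9.38 in control (SD, n = 3 each), 2.32-fold lower in salt. In log2 this ratio was -1.21, and -0.73 on the flowering-plant scale. Clade I summed to 25.2 ± 1.34 CPM in salt and 54.6 ± 2.60 in control, and clade II to 46.6 ± 2.27 in salt and 114 ± 8.02 in control (SD, n = 3 each). Clade I had 5 of 7 tested clusters called lower and clade II 10 of 11, beside 29.3% of all tested clusters. With the flowering-plant scale the counts were 3 of 7 and 7 of 11, beside 16.5%, and no difference between the clades was tested.

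Levels between clusters were compared as FPKM (fragments per kilobase of cluster, scaled to library size), which divides by length. The deposited FPKM uses a length about 240 bases shorter than the cluster, so FPKM of the shortest clusters rests on few reads. Summed FPKM over the TGA clusters was 105 ± 1.70 in salt and 323 ± 10.6 in control (SD, n = 3 each), with no correction for composition. TGA6 clusters took 21.5% ± 3.05 of it in salt and 30.2% ± 1.26 in control, the highest share of any name in both groups. HBP-1b(c38) followed in salt with 19.6% ± 1.96, against 15.7% ± 0.706 in control, and TGA-1A followed in control, with 13.2% ± 4.12 in salt and 20.7% ± 1.80 in control. TGA-2.1 took 16.1% ± 1.55 in salt and 12.6% ± 0.792 in control, and TGA1 14.3% ± 1.43 in salt and 11.5% ± 1.78 in control. Over the salt libraries the shares of TGA6 and HBP-1b(c38) overlapped, as did those of HBP-1b(c38) and TGA-2.1. TGA2, a single cluster, took 9.38% ± 0.819 in salt and 5.46% ± 0.210 in control, while TGA4 took 4.52% ± 0.940 in salt and 3.17% ± 0.0837 in control, and PERIANTHIA 1.21% ± 0.522 in salt and 0.447% ± 0.0268 in control. TGA5 and TGA7 were under 0.5% in every library. In summed counts, which do not divide by length, HBP-1b(c38) led instead with 22.5% in salt and 24.4% in control, and TGA6 held 9.18% in salt and 14.1% in control. TGA-1A held 6.20% of the counts in salt and 8.85% in control, in both groups below TGA-2.1 and TGA1.

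All 3 TGA6 clusters fell in salt, on both scales. In Arabidopsis TGA6 acts redundantly with TGA2 and TGA5 as an NPR1 partner. TGA6 cluster 166470 (697 bases) had 2.27, 1.98 and 2.41 CPM in salt and 8.70, 11.1 and 9.95 CPM in control. The salt libraries lay close together and far below all control libraries, a difference of -2.16 in log2 fold change (SE 0.19, adjusted p = 0.000312 in edgeR), and -1.68 with the flowering-plant scale. This was the smallest p of any TGA cluster. TGA6 cluster 164126 (613 bases) had 3.05, 4.16 and 3.9 CPM in salt and 9.21, 10.7 and 9.09 CPM in control, a difference of -1.38 in log2 fold change (SE 0.18, adjusted p = 0.00131 in edgeR). TGA6 cluster 166473 was 340 bases long and had 19, 10 and 8 counts in salt and 87, 101 and 64 in control, a difference of -2.37 in log2 fold change (SE 0.38, adjusted p = 0.00273 in edgeR). It had the highest mean FPKM of the 29, which rests on these counts and a short length.

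HBP-1b(c38), named in wheat for binding a hexamer motif of histone promoters, had 3 clusters and all were called lower. HBP-1b(c38) cluster 199482, of 2000 bases, had 1.36, 0.468 and 0.857 CPM in salt and 9.46, 9.43 and 11.9 CPM in control. It showed the largest fold of the called TGA clusters, a difference of -3.51 in log2 fold change (SE 0.37, adjusted p = 0.00064 in edgeR) and -3.04 on the flowering-plant scale. HBP-1b(c38) cluster 164817 had 9.77, 10.7 and 12.6 CPM in salt and 19.5, 24.0 and 19.3 CPM in control, a difference of -0.92 in log2 fold change (SE 0.14, adjusted p = 0.00242 in edgeR). It also passed on the flowering-plant scale, at -0.44 (edgeR adjusted p = 0.0439). HBP-1b(c38) cluster 170417 had 3.94, 6.53 and 3.81 CPM in salt and 9.90, 11.9 and 10.2 CPM in control, a difference of -1.16 in log2 fold change (SE 0.25, adjusted p = 0.00778 in edgeR). With the flowering-plant scale it was -0.67 and did not pass (edgeR adjusted p = 0.068).

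The single TGA2 cluster, 147246, shares its NR best match with HBP-1b(c38) cluster 164817. In Arabidopsis TGA2 binds NPR1 and SCL14. The cluster had 8.90, 7.82 and 7.86 CPM in salt and 12.8, 14.3 and 13.3 CPM in control. Every salt library lay below every control library, with -0.72 in log2 fold change (SE 0.12, adjusted p = 0.00291 in edgeR). On the flowering-plant scale the value was -0.24 and did not pass (edgeR adjusted p = 0.105). TGA5 cluster 71538, a short one, had 0 counts in all salt libraries and 0, 2.02 and 3.08 in control, too few to test.

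Tobacco TGA-2.1 is a clade II factor that binds the as-1 type of element in xenobiotic- and salicylic acid-responsive promoters. Of its 8 clusters 4 were tested and 3 were called lower. TGA-2.1 cluster 213265 had 9.93, 8.72 and 11.3 CPM in salt and 17.0, 18.3 and 15.7 CPM in control, a difference of -0.77 in log2 fold change (SE 0.13, adjusted p = 0.00351 in edgeR). Under the flowering-plant scale it was -0.29 and did not pass (edgeR adjusted p = 0.104). TGA-2.1 cluster 222176 had 2.40, 4.74 and 3.36 CPM in salt and 8.65, 7.70 and 14 CPM in control, a difference of -1.52 in log2 fold change (SE 0.34, adjusted p = 0.00908 in edgeR). TGA-2.1 cluster 171149 had 0.817, 0.870 and 0.940 CPM in salt and 4.39, 7.62 and 3.52 CPM in control, a difference of -2.54 in log2 fold change (SE 0.38, adjusted p = 0.00203 in edgeR). Both passed on the flowering-plant scale, at -1.04 and -2.05 (edgeR adjusted p = 0.0484 and 0.00418). The fourth tested cluster, 136114, had at most 13.4 counts in salt and 30.9 in control, and its groups overlapped (log2 fold change -0.96, SE 1.12, edgeR adjusted p = 0.50).

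Tobacco TGA-1A is a clade I factor. TGA-1A cluster 211112 (656 bases) had 5.04, 4.81 and 3.24 CPM in salt and 14, 15.5 and 11.8 CPM in control. The groups were well apart, with -1.65 in log2 fold change (SE 0.21, adjusted p = 0.00118 in edgeR) and -1.17 on the flowering-plant scale. TGA-1A cluster 211110, of 278 bases, had 1, 6 and 0 counts in salt and 21.0, 32.9 and 18.0 in control. It was called at -2.96 in log2 fold change (SE 0.89, adjusted p = 0.0295 in edgeR), with the least support of the 15: it did not pass on the flowering-plant scale (edgeR adjusted p = 0.0584), without salt 1, or without any 1 of the control libraries, where the adjusted p reached 0.107. For each of the other 14 called clusters the adjusted p stayed at or under 0.0425 whichever library was left out.

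TGA1 and TGA4 are the Arabidopsis factors with a role in root nitrate responses. TGA1 cluster 170683 had 14, 17 and 21 counts in salt and 58, 67 and 78 in control, a difference of -1.57 in log2 fold change (SE 0.33, adjusted p = 0.00754 in edgeR). TGA1 cluster 160465 had 2.31, 3.10 and 1.40 CPM in salt and 10.3, 7.35 and 7.53 CPM in control, a difference of -1.88 in log2 fold change (SE 0.32, adjusted p = 0.00346 in edgeR). Both passed on the flowering-plant scale as well, at -1.09 and -1.41. TGA1 cluster 160464, the TGA1 cluster with the most counts in every library, had 6.88, 7.92 and 9.73 CPM in salt and 13.3, 12.5 and 13.3 CPM in control. Its log2 fold change was -0.67 (SE 0.15, edgeR adjusted p = 0.0108), the smallest of the called clusters, and -0.18 on the flowering-plant scale, where it did not pass (edgeR adjusted p = 0.408).

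The TGA4 clusters had counts that alternated between them in the salt libraries. TGA4 cluster 134808 had 0.01, 92.7 and 104 counts in salt and 223, 224 and 224 in control (log2 fold change -1.37, SE 1.01, edgeR adjusted p = 0.295). TGA4 cluster 186017, of similar length, had 90.8, 0 and 0 counts in salt and 0, 82.9 and 0 in control. The only salt library with almost no counts in the first cluster was thus the only one with counts in the second. Summed, the TGA4 clusters had 6.45, 6.02 and 8.44 CPM in salt and 13.1, 15.1 and 13.1 CPM in control, and the groups did not overlap. Without the library salt 1, cluster 134808 was called lower, at -0.78. TGA1 cluster 158211 was the tested TGA cluster with the highest fold change (2.48, SE 1.80, edgeR adjusted p = 0.286), with 68.6, 14.3 and 0 counts in salt and 0, 19.8 and 0 in control.

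Many deposited counts are not whole numbers, as estimates that divide reads among alike sequences give. Among the 9 TGA1, TGA4 and TGA7 clusters, 30 of 38 values above 0 were not whole numbers, yet their sum was whole, within 0.02, in all 6 libraries: 305, 298 and 263 counts in salt and 695, 809 and 660 in control. The same held for the 8 TGA-2.1 clusters, with 189, 234 and 200 counts in salt and 553, 741 and 608 in control, where 33 of 36 single values were not whole. The sums were not whole in any library for HBP-1b(c38), TGA2 or TGA6, name by name or together, and for TGA-1A they were whole in 4 of 6. Of the 18 TGA6 values above 0, 6 were not whole, all of them in cluster 166470. These groupings were looked for after the values had been seen. The TGA1, TGA4 and TGA7 clusters together had 20.8 ± 1.26 CPM in salt and 39.8 ± 1.04 in control (SD, n = 3 each), 1.91-fold lower in salt. In these groups the values of single clusters that had counts other than whole numbers are uncertain. TGA1 cluster 170683 had whole counts in all 6 libraries.

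**Figure D2:**
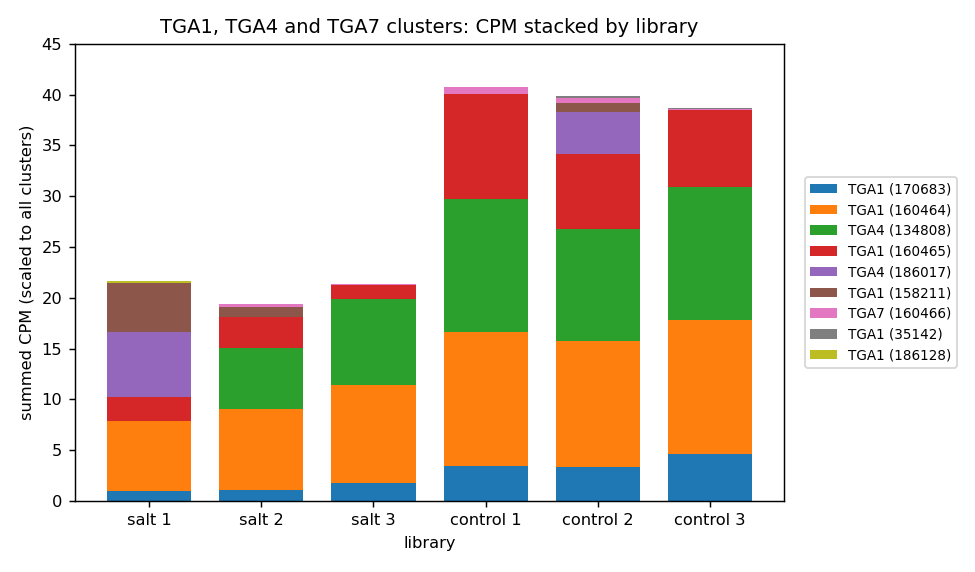
CPM of the 9 TGA1, TGA4 and TGA7 clusters stacked for each library, salt libraries on the left and control libraries on the right. The totals lie between 19.4 and 21.7 in salt and between 38.7 and 40.8 in control, while the TGA4 counts stand in cluster 186017 in salt 1, in cluster 134808 in salt 2 and salt 3, and in both in control 2.

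When counts were summed per Swiss-Prot entry before the test, a choice made after seeing the data, 8 of the 10 TGA names were tested and 7 were called lower. In that fit 42.3% of 1604 entries were called lower and 37% higher, so the count of names is read against a high background. The log2 fold changes were -1.83 for TGA6, -1.72 for TGA-1A, -1.33 for HBP-1b(c38), -1.22 for TGA-2.1, -0.99 for TGA4, -0.90 for TGA1 and -0.72 for TGA2, with SE between 0.097 and 0.18. The largest edgeR adjusted p of the 7 was 0.000376, for TGA2. TGA4, not called as a single cluster, passed as a sum (edgeR adjusted p = 0.000203). On the flowering-plant scale 6 of 8 were called lower, beside 26% of entries lower and 48.5% higher; TGA2 did not pass, at -0.24 (edgeR adjusted p = 0.0848).

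TGA7 was too sparse to test and PERIANTHIA did not pass. TGA7, a clade III factor that binds NPR1 in Arabidopsis, had 1 cluster (160466) with 0, 4.29 and 1.11 counts in salt and 11.9, 9.95 and 1.35 in control, too few to test. PERIANTHIA cluster 271820 had 22, 25 and 38 counts in salt and 34, 48 and 37 in control. Its log2 fold change was -0.06 (SE 0.36, edgeR adjusted p = 0.893) and turned positive under other scalings, at 0.42 on the flowering-plant scale, where it did not pass either. The interval is wide: values within 1 SE run from a modest fall to a modest rise. The 10 clusters that were not tested had at most 90.8 counts and 4.33 FPKM in any library, and 4 of them had 0 counts in every salt library.

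The authors' deposited table calls 11 of the 29 clusters DOWN, 0 UP and 18 neither; over all 10744 clusters the same deposited table calls 1098 DOWN and 1446 UP. All 11 were among the 15 called lower here, and each of the 11 fell by at least 2-fold here. The other 4 called lower here fell by less than 2-fold. Their deposited q-values ran from 6.8e-05 to 0.036 and their deposited log2 ratios from -0.85 to -0.60. The DOWN label thus did not follow the q-value alone, while the 15 were called on the adjusted p alone.

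**Figure D3:**
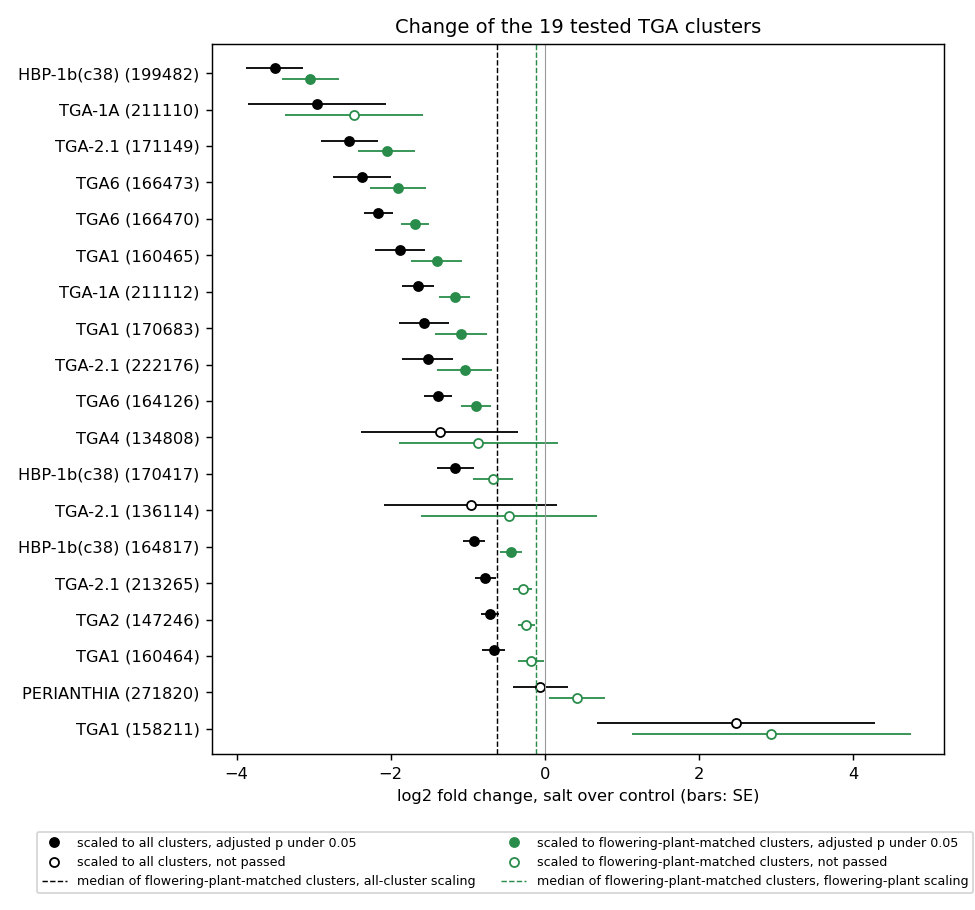
Log2 fold change, salt over control, of the 19 tested TGA clusters with bars of 1 SE, on the scale set by all clusters (black, upper) and by flowering-plant-matched clusters (green, lower). Filled points passed an adjusted p under 0.05, 15 in black and 10 in green, and dashed lines mark the medians of all tested flowering-plant-matched clusters, -0.62 and -0.12.

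The TGA clusters were set beside the rest of the table. Their median log2 fold change was -1.38, beside -0.37 for all tested clusters, -0.62 for flowering-plant-matched ones and -0.49 for the other flowering-plant bZIP clusters. On the flowering-plant scale the medians were -0.90 for TGA clusters, 0.17 for all, -0.12 for flowering-plant-matched and -0.02 for other bZIP. The distance between TGA and flowering-plant-matched clusters was thus -0.76 on one scale and -0.77 on the other. Of the 19 tested TGA clusters, 17 lay below the median of the other flowering-plant-matched clusters. Over flowering-plant-matched clusters 35.5% were called lower and 12.3% higher, and 20.3% lower and 21.9% higher on the flowering-plant scale. Among the other bZIP clusters 47 of 126 (37.3%) were called lower and 12 (9.52%) higher, and on the flowering-plant scale 19 of 125 (15.2%) lower and 26 (20.8%) higher. Whether these clusters are separate genes was not tested.

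**Figure D4:**
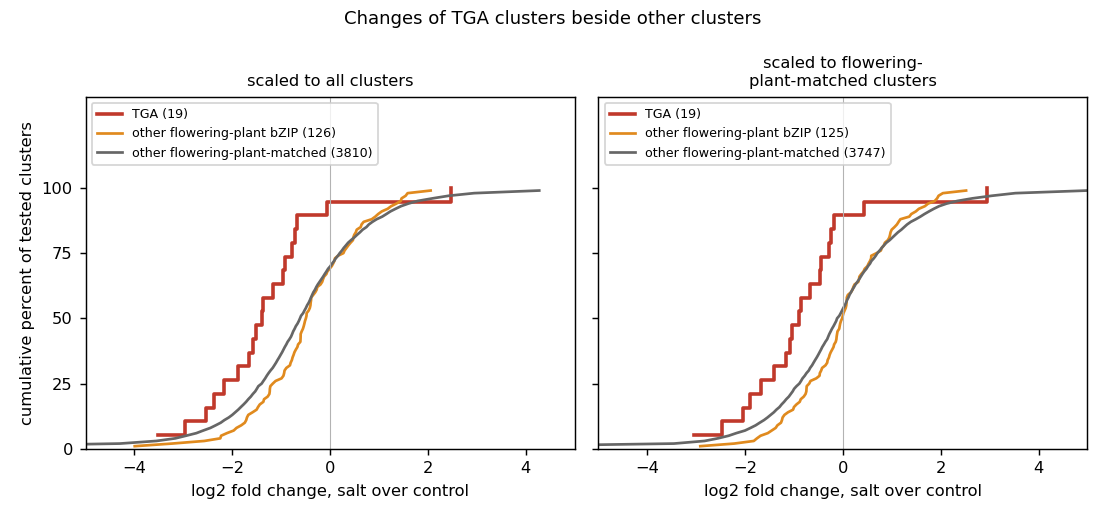
Cumulative percent of tested clusters by log2 fold change, salt over control, for TGA clusters (red steps), other flowering-plant bZIP clusters (orange) and other flowering-plant-matched clusters (grey), under both scalings. The TGA steps lie left of the other curves over most of the range under both, with medians of -1.38 and -0.90.

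A share within the bZIP family does not depend on the scale of the libraries. TGA clusters took 5.61%, 5.98% and 6.24% of the counts of all 214 flowering-plant bZIP clusters in salt and 10.7%, 11.1% and 10.6% in control. The means were 5.94% ± 0.319 in salt and 10.8% ± 0.228 in control (SD, n = 3 each), and no salt library reached a control library. In FPKM the share was 7.21% ± 0.361 in salt and 15.8% ± 0.515 in control (SD, n = 3 each). With 3 libraries a group, an exact two-sided permutation test of such a share cannot go below 0.10, so no p is given.

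**Figure D5:**
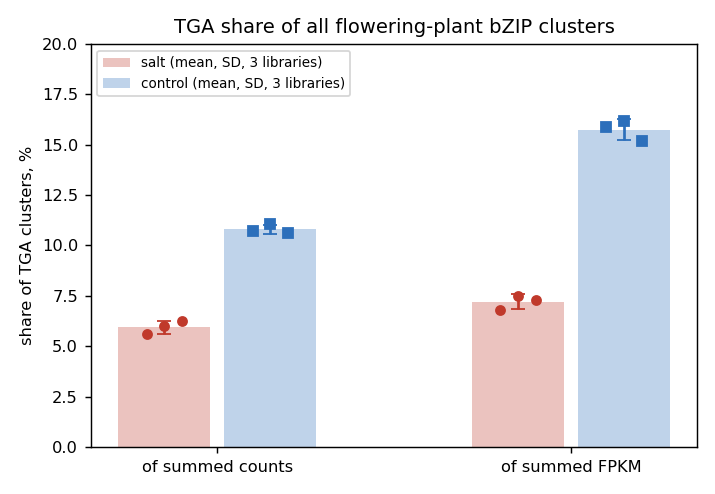
Share of TGA clusters in the summed counts and summed FPKM of the 214 flowering-plant bZIP clusters, in percent, with salt (red) left of control (blue); bars are means, error bars SD over 3 libraries, points single libraries. Every salt point lies below every control point, with means of 5.94% in salt and 10.8% in control for counts.

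The partners and pathway genes of TGA factors moved both ways. Of 38 names searched, 23 were found, in 230 clusters, of which 132 were tested; 53 were called lower and 13 higher (8 higher without control 1 or without control 3), beside 29.3% lower and 23.9% higher of all tested clusters. With the flowering-plant scale the calls were 27 lower and 26 higher of 133, beside 16.5% lower and 33.4% higher of all tested clusters. Each list below was drawn from flowering-plant-matched clusters only. Of those clusters 35.5% were called lower and 12.3% higher, and 20.3% lower and 21.9% higher on the flowering-plant scale. The partner shares were 40.2% lower and 9.85% higher, and 20.3% lower and 19.5% higher on the flowering-plant scale. The names NPR2, NPR6, BOP1, BOP2, WRKY62, NAC032, ERF094 (ORA59), HHO1 to HHO3, HRS1, BT2, WUS, LFY and AG matched no cluster by gene name.

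SCL14, the GRAS protein that joins TGA2 at detoxification genes in Arabidopsis, had 12 of 18 tested clusters called lower and 0 higher, beside 29.3% lower and 23.9% higher of all tested clusters. With the flowering-plant scale 5 were lower and 2 higher, beside 16.5% and 33.4%. Without control 2 the count was 7 lower. SCL14 cluster 154017 had 2.42, 2.37 and 2.84 CPM in salt and 9.24, 11.4 and 8.81 CPM in control, a difference of -1.95 in log2 fold change (SE 0.19, adjusted p = 0.000445 in edgeR) and of -1.47 on the flowering-plant scale. The most abundant SCL14 cluster by FPKM, 169171, had 46.0 ± 4.71 CPM in salt and 61.1 ± 1.13 in control (SD, n = 3 each), a difference of -0.41 in log2 fold change (adjusted p = 0.00778 in edgeR). Its value was 0.07 with the flowering-plant scale and did not pass (edgeR adjusted p = 0.455).

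Among the NPR co-regulators, 4 of 13 tested clusters were called lower (2 matching NPR1, 1 NPR3 and 1 NPR5) and 3 higher. These shares, 30.8% and 23.1%, lie near the 29.3% lower and 23.9% higher over all tested clusters. Over flowering-plant-matched clusters 35.5% were called lower and 12.3% higher. With the flowering-plant scale 3 NPR clusters were lower and 4 higher, beside 20.3% lower and 21.9% higher of flowering-plant-matched clusters. The most abundant NPR1 cluster by FPKM, 224309, overlapped between groups, with 4.17, 9.94 and 5.73 CPM in salt and 6.18, 12 and 12.8 CPM in control (log2 fold change -0.64, SE 0.40, edgeR adjusted p = 0.217). The 3 higher clusters all matched NPR3, a salicylic acid receptor in Arabidopsis, and are named here after their values were seen. Without salt 2, or without control 2, 1 NPR cluster was called higher. NPR3 cluster 174332 had 101 ± 7.2 CPM in salt and 59.3 ± 3.84 in control (SD, n = 3 each), a difference of 0.76 in log2 fold change (SE 0.08, adjusted p = 0.00064 in edgeR). NPR3 clusters 194078 and 186651 had log2 fold changes of 0.39 and 3.36 (edgeR adjusted p = 0.0241 and 0.0342), the second from 10.5, 4.65 and 3.33 CPM in salt and 0, 0.398 and 1.40 in control. All 3 were called higher on the flowering-plant scale too. NPR3 cluster 180165 went the other way, with 1.81, 2.41 and 0.0236 CPM in salt and 11.1, 13.3 and 14.2 CPM in control (log2 fold change -3.17, SE 0.83, edgeR adjusted p = 0.0171; -2.69 on the flowering-plant scale).

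WRKY factors of the salicylic acid response had 17 of 32 tested clusters called lower and 2 higher, beside 29.3% lower and 23.9% higher of all tested clusters. With the flowering-plant scale 8 were lower and 6 higher of 34, beside 16.5% and 33.4%. Without any 1 of the salt libraries, 1 was called higher. WRKY53 cluster 194434, a match to a leaf senescence and defence regulator, had 4.98 ± 0.282 CPM in salt and 11.5 ± 0.527 in control (SD, n = 3 each), a difference of -1.21 in log2 fold change (adjusted p = 0.000629 in edgeR) and of -0.73 on the flowering-plant scale. Of the Dof factors only matches to DOF1.1, DOF3.4, DOF3.6 and DOF5.4 were listed, the OBF-binding proteins that bind TGA factors in Arabidopsis. They had 3 of 15 tested clusters called lower (20%, below the 29.3% of all tested clusters) and 0 higher. At an unadjusted p under 0.05 edgeR had 7 lower and 0 higher, beside 1765 lower and 1378 higher of all 5284 tested clusters. DESeq2 called 4 lower and 1 higher, beside 25.9% lower and 30.4% higher of all tested clusters. The 3 matched DOF1.1, DOF3.6 and DOF5.4, and with the flowering-plant scale 1 of 14 was lower and 1 higher.

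The nitrate list had 13 of 48 tested clusters called lower (27.1%) and 8 higher (16.7%), against 29.3% lower and 23.9% higher over all tested clusters. Over flowering-plant-matched clusters 35.5% were called lower and 12.3% higher. The balance of the nitrate list turned with the scale, as did that of all tested clusters. On the flowering-plant scale 7 were lower (14.6%) and 12 higher (25%), beside 16.5% lower and 33.4% higher of all tested clusters. Of flowering-plant-matched clusters 20.3% were lower and 21.9% higher there. With column sums 10 were lower and 12 higher, beside 23.6% lower and 27.8% higher. Higher calls numbered 4 without control 1 or without control 3, and lower calls 7 without control 2 and 8 without control 3. NLP7, the nitrate-sensing transcription factor, had 10 of 31 lower and 1 higher, and 7 lower and 2 higher on the flowering-plant scale. NLP7 cluster 176179 had 2.95, 3.45 and 2.80 CPM in salt and 15.9, 15.1 and 13.9 CPM in control, a difference of -2.28 in log2 fold change (SE 0.15, adjusted p = 0.000119 in edgeR) and of -1.80 on the flowering-plant scale. LBD38, a repressor of nitrate-responsive genes, had 2 of 6 tested clusters called higher and 0 lower, and 5 of 6 higher on the flowering-plant scale. LBD39 had 2 of 4 higher and 1 lower, BT1 2 of 6 higher and 2 lower, and LBD37 1 of 1 higher. On the flowering-plant scale the same numbers were higher for LBD39, BT1 and LBD37, and 0 lower. EIN3, an ethylene signalling factor outside the nitrate list, was included as a partner of NPR1. It had 4 of 6 lower and 0 higher, and 3 lower and 1 higher on the flowering-plant scale, beside the shares given above. The higher one, EIN3 cluster 102988, named after its values were seen, was at 0.52 there (edgeR adjusted p = 0.0306) and at 0.04 on the scale of all clusters (edgeR adjusted p = 0.853). EIN3 clusters 180821, 149901 and 149898 had log2 fold changes of -0.78, -0.71 and -0.82 and, on the flowering-plant scale, of -0.30, -0.23 and -0.34, and passed on both (largest edgeR adjusted p = 0.0345).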

How the data were processed

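RNA-seq libraries were made from total RNA with the Illumina TruSeq kit, per the labels' protocols. Per the submitters' processing notes, Bowtie2 2.0.6 and TopHat2 2.0.12 were used; for the assembler and counting tool, sources used here give no name. The authors deposited expected counts (49.3% not whole), FPKM, a Swiss-Prot match score, a log2 ratio and a q-value per regulator cluster, and FPKM for all 469059 clusters. Counts were rounded. Depth was recovered as the slope of count over FPKM on length (clusters of at least 200 counts and 1000 bases) and multiplied by TMM factors of the FPKM of all clusters; CPM uses this size. edgeR 4.0.16 in R 4.3.3 tested salt minus control without covariates after filterByExpr; SE is the log2 fold change over the root of F. DESeq2 1.42.0, limma 3.58.1 on log2(FPKM + 1) or log2(FPKM + 0.1) with at least 1 FPKM in at least 3 libraries, other scalings, no filter, a replicate block and leaving out each library were alternatives. The threshold was an adjusted p (Benjamini-Hochberg) under 0.05. The fit was tested on simulated data. Named were all called TGA clusters (at most 30), the cluster of highest mean FPKM of each name, the 6 partner clusters of smallest p and the highest-FPKM NPR1 and SCL14 cluster. The members, lists and tests were chosen with earlier results of these data known. The SD and SE given rest on 3 libraries per group.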

Additional observations from a re-analysis of the deposited data

How the results depend on the processing

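TGA clusters called lower numbered 14 to 15 when 1 library was left out, 15 with DESeq2, without composition factor and in the limma fits on FPKM, 14 with column sums, without a filter and with the replicate block, and 10 on the flowering-plant scale; 0 were higher in each of these. Calls lower over all clusters numbered 1549, 870 on the flowering-plant scale and 1108 to 1638 with a library left out. The median of the tested TGA clusters was -1.38, -1.10 with DESeq2 and -0.90 on the flowering-plant scale. With limma the TGA clusters had a median of -1.75 at a pseudocount of 0.1, and of -0.85 at a pseudocount of 1 without a filter. The log2 ratio of their summed CPM was -1.21, -0.93 with DESeq2, -1.0 with column sums, -1.33 without composition factor and -0.73 on the flowering-plant scale, and -1.24 to -1.17 with a library left out. Other bZIP clusters called higher were 12, and 25, 19 and 26 with DESeq2, column sums and the flowering-plant scale, where 19 were lower against 47. Partner clusters called higher were 13, and 23, 20 and 26 under these scalings, 7 with the replicate block and 8 to 11 with a library left out (8 without control 1 or control 3); 27 against 53 were lower on the flowering-plant scale. PERIANTHIA changed sign to 0.21, 0.15 and 0.42 under the same scalings, and ran between -0.45 and 0.11 with a library left out. Higher calls made up 44.9% of all calls, and 66.9% on the flowering-plant scale. The cause of these shifts was not tested. Correlations of deviations between libraries of the same replicate number were 0.043, 0.020 and 0.022, and each salt library correlated best with its own number. With 3 libraries a group, such values cannot settle whether the numbers pair libraries. The replicate block gave 1118 lower calls over all clusters, 7 against 12 for SCL14, and 1 against 3 higher calls for NPR.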
